A study of Mus musculus with 24 samples.

Results

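Wnt signalling was followed through 38 genes of the pathway in the cortex of mice that had a stroke 1 day earlier: 7 Wnt ligands, 2 genes of Wnt secretion, 10 receptors and co-receptors, 3 R-spondins, 3 secreted antagonists, 5 membrane and feedback inhibitors, 6 genes of the cytoplasmic core and 2 nuclear effectors. They are all genes of these families, taken by symbol, that were listed in each of the 4 deposited tables, and they make up 38 of the 14014 genes listed in all 4. Another 4 genes of these families, Nkd2, Sfrp4, Tcf7 and Wnt3, were listed in some but not all tables and were left out. The remaining annotated genes of these families, Wif1 and Dkk1 among them, were listed in none of the 4 tables and could not be analysed here.

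The animals were male mice aged 3 to 4 months whose middle cerebral artery had been closed with a filament for 1 h and then reopened for 1 day, a model of ischemic stroke known as tMCAo. The labels give the strain of every animal, wild type included, as C57BL/6N-Cdr1asem1Nikr. WT animals carried ciRS-7 and KO animals lacked it. ciRS-7, also named Cdr1as, is a circular RNA of neurons that binds the microRNA miR-7. All 24 samples came from operated mice, since each label names the surgery, and each is marked CL or PI without the marks being spelled out. WT and KO each gave 6 CL and 6 PI cortex libraries, and the labels give a CL and a PI library for every numbered animal. The study set out to compare gene expression between WT and ciRS-7 KO animals after stroke.

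Wnt ligands are lipid-modified secreted proteins that bind Frizzled receptors together with the co-receptors Lrp5 and Lrp6. Binding stops a cytoplasmic complex built on Axin and containing the kinase Gsk3b from marking β-catenin (Ctnnb1) for destruction, and β-catenin then enters the nucleus and acts with Tcf and Lef factors. In the brain the pathway is known for its part in the growth and barrier function of blood vessels, in axon guidance and at synapses.

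Expression was given as log2 CPM, that is, the counts of a gene per library total, with the total scaled separately in each deposited table. The depth read from the steps between low values carries this scaling. PI WT replicate 1, for example, came to 9.89 M reads (megareads) beside CL WT and 9.69 M reads beside PI KO. Over all libraries this depth was 3.74 to 10.5 M reads per library (median 6.91), so that 3 reads corresponded to 0.286 to 0.803 CPM. That limit covers counting error alone. Before deposit, each gene's outer values had been pulled to the group's quartiles, so that both the 2 lowest and the 2 highest libraries tied. The second lowest and second highest value could be solved from this, and the extreme values could not. Ranges of single genes below therefore run from the second lowest to the second highest of 6 libraries, and their groups are said to overlap or not only over these recoverable values. Ranges of summed marker levels run instead from the lowest to the highest of 6 library sums. These sums were taken over the deposited, drawn-in values, so their spread is understated. CL KO replicate 6 stood apart: it was the shallowest library (3.74 to 3.82 M reads) and lay inside its group in only 10.5% to 10.6% of genes, where 33.3% is the share if all libraries were alike. PI WT replicate 4 was next, at 19.3% to 19.4%. Cdr1as itself stood at 2594 to 3004 CPM in PI WT and 3386 to 3809 CPM in CL WT, values that were scaled separately. In KO it stood at no more than 0.169 CPM, under the 3-read limit. Of the neuronal markers, which include Slc17a7 and Neurod6 of cortical excitatory neurons, 10 of 10 were listed in every table, and 1 of 8 choroid plexus markers was listed. Markers of neighbouring regions were also present: 5 of 6 thalamic markers, Tcf7l2 and Lef1 set aside, summed to 368 to 403 CPM in CL WT and 296 to 345 CPM in PI WT, and to 317 to 378 and 289 to 344 CPM in KO. For 6 of 8 striatal markers the sums were 138 to 177 CPM in CL WT, 119 to 146 CPM in PI WT, 132 to 155 CPM in CL KO and 116 to 144 CPM in PI KO.

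Promoter sequence was examined because Axin2 is a direct target of β-catenin and several members are known targets in other tissues. RefSeq windows of 300 bases (250 before and 50 after the start, GRCm38.p6) were held for 21 of the 38 genes, in 27 windows. No window was held for Fzd2, Fzd3 or Apcdd1, which were called below, so the search did not cover them. The Tcf/Lef core words CTTTGAA or CTTTGAT or CTTTGTA or CTTTGTT were searched on both strands; they share their first bases, so at a given position of a strand no more than 1 can match. At least 1 occurred in 3 of the 27 windows (11.1%), those of Fzd7 and of downstream starts of Lef1 and Tcf7l2, against 11.1% of the windows of genes listed in all 4 tables and 16.9% of all windows. The Frzb and Axin2 windows held none of these words. The Axin2 window is shown because Axin2 was called in one genotype below, and its 250 bases before the start had 69.2% G or C and 24 CpG. It lies at chr11:108920099-108920348 on the plus strand, just before the first exon, and capitals mark CpG.
Axin2: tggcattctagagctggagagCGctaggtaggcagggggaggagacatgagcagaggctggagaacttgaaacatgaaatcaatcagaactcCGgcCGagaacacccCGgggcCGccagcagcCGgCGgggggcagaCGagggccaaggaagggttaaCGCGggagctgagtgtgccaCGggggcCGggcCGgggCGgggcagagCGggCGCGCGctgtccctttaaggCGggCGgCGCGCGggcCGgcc

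In CL WT cortex the level per exon length spanned 104 CPM per kb for Dkk3, a divergent Dickkopf family member, down to 0.212 CPM per kb for the receptor Fzd5. Ctnnb1 stood at 51.9 and Gsk3b at 28.2 CPM per kb. Fzd3 was the most abundant receptor at 13.0 CPM per kb (12.3 to 13.6), above Lrp6 at 7.35 (7.10 to 7.58), and these ranges did not overlap. Rspo3, Porcn and Dvl1 followed at 6.58, 6.31 and 6.08 CPM per kb with overlapping ranges. Frzb stood at 3.22, Fzd2 at 2.38 and Axin2 at 2.06 CPM per kb.

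The ligands were low. Wnt9a led them at 2.15 CPM per kb (1.88 to 2.48), Wnt10a and Wnt4 overlapped it, and Wnt7a was lowest at 0.936 CPM per kb (0.570 to 1.34). Among the nuclear effectors Tcf7l2 stood at 0.436 and Lef1 at 0.280 CPM per kb. Apcdd1 stood at 0.299 CPM per kb, and its median of 26 reads per library, like 18 reads for Lef1, sets how finely such genes could be measured.

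**Figure D1:**
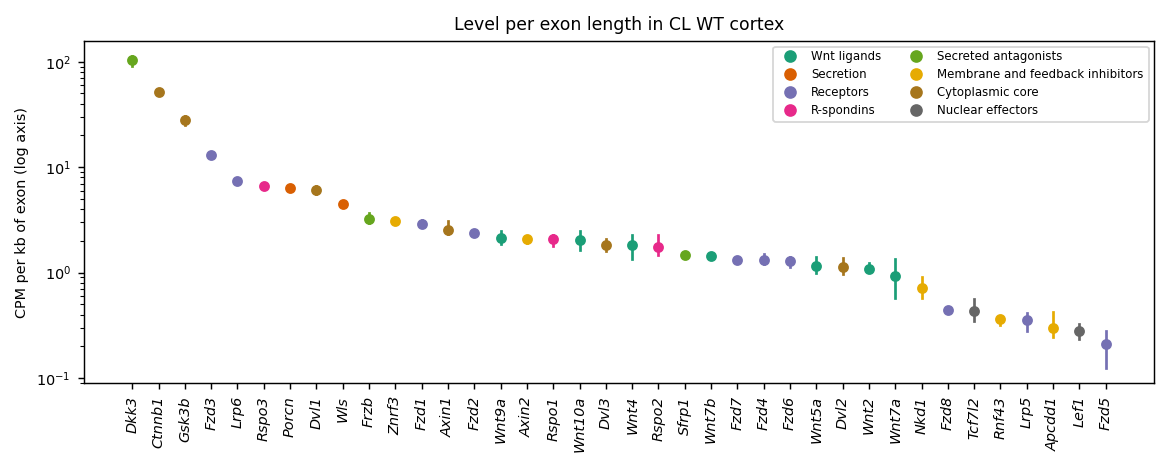
Level of the 38 genes in CL WT cortex, in CPM per kb of exon on a log axis, ordered by level and coloured by role. Points are the trimmed mean of 6 libraries and lines run from the second lowest to the second highest library; Dkk3 stands highest at 104 and Fzd5 lowest at 0.212.

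The first question was how PI cortex differed from CL cortex in WT animals. A moderated trimmed-mean test with limma's empirical Bayes step and Benjamini-Hochberg adjustment over 14489 genes called 4 of the 38 genes (10.5%), at a background of 10.6% of all genes. Fzd3, Fzd2 and Frzb were lower in PI and Apcdd1 was higher. The median log2 fold change of the 38 genes was -0.04, and that of all genes was 0.01. The share called was near the background. At an unadjusted p under 0.05 there were 11 of 38 genes, where 23.9% of all genes were, and the groups did not overlap in 11 of 38, where 26.3% of all genes did not. Since these are bulk samples, fewer cells of a type and less RNA per cell cannot be told apart.

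In KO animals the same test over 14338 genes called 5 of the 38 genes (13.2%), at a background of 10.0% of all genes. Fzd3, Fzd2 and Frzb were again lower and Apcdd1 higher, and Axin2 was lower. The median log2 fold change was -0.13 for the 38 genes and 0.00 for all genes. At an unadjusted p under 0.05 there were 12 of 38 (24.9% of all genes), and the groups did not overlap in 14 of 38 (26.8% of all genes). The animals of the 2 genotypes were different, and the 4 genes called in WT were 4 of 4 of the WT calls and 4 of 5 of the KO calls, where over all genes 850 calls were shared, 55.9% of the WT and 59.3% of the KO calls. The sign agreed between genotypes in 27 of the 38 genes (71.1%), against 71.0% of all genes. Without a trend of the variance on the mean, calls were lost for Apcdd1 (adjusted p = 0.115) and Fzd2 (adjusted p = 0.0949) in WT and for Frzb (adjusted p = 0.114), Fzd3 (adjusted p = 0.0690) and Axin2 (adjusted p = 0.0509) in KO.

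**Figure D2:**
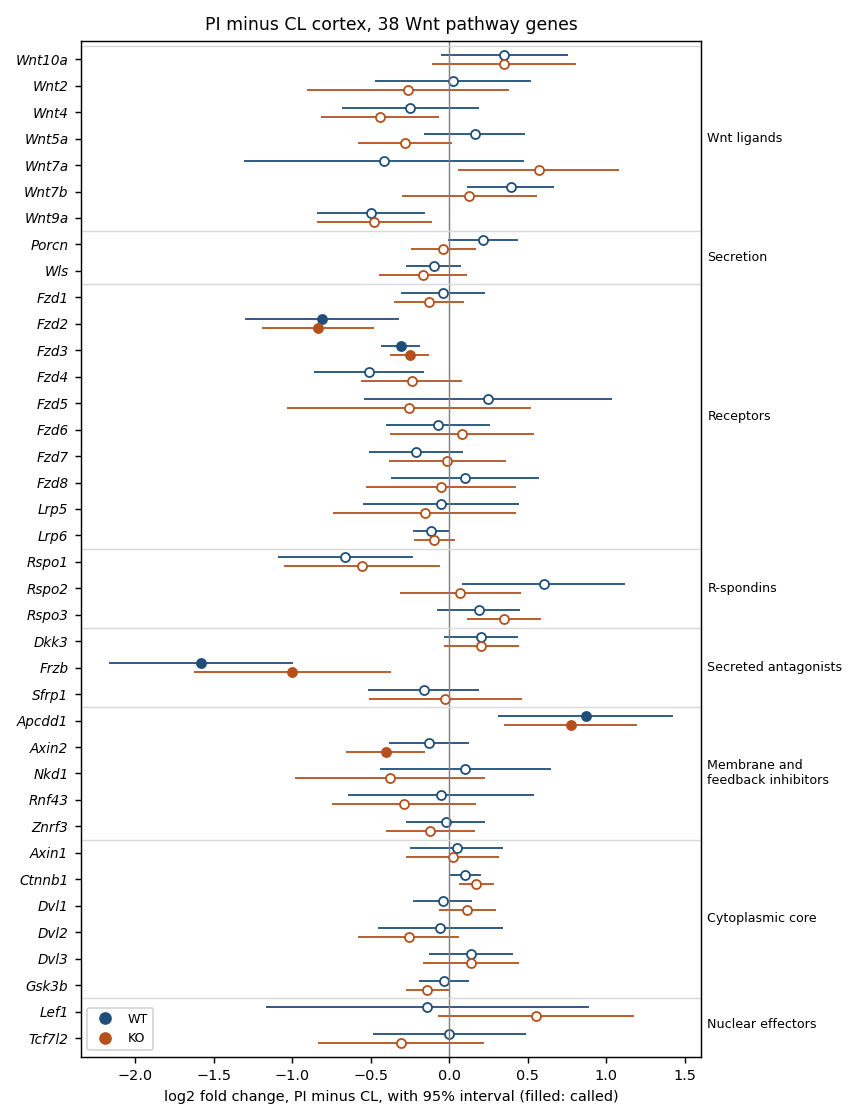
Log2 fold change of PI minus CL for each of the 38 genes, in WT and KO animals, with 95% intervals and grouped by role. Filled points passed the adjusted test: Fzd2, Fzd3, Frzb and Apcdd1 in both genotypes, and Axin2 in KO; the difference between genotypes was not called for any of them.

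Among the receptors 2 of 10 were called lower in each genotype and none higher, where 5.40% of all genes were called lower in WT and 4.94% in KO. Fzd3 (chr14:65192449-65262463, minus strand), a Frizzled known for axon guidance and planar cell polarity, ran from 157 to 175 CPM in CL WT (median 167) and from 130 to 136 CPM in PI WT (median 136). All recoverable PI values lay under all recoverable CL values, and the fold was modest: PI was 1.24-fold lower, a log2 fold change of -0.31 (SE 0.06, n = 6 per group, adjusted p = 0.00437). In KO, Fzd3 ran from 157 to 173 CPM in CL and from 135 to 139 CPM in PI, a log2 fold change of -0.25 (SE 0.06, n = 6 per group, adjusted p = 0.0164). The Fzd3 call was kept in 12 of 12 fits that left out 1 library, in both genotypes.

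Fzd2 (chr11:102604396-102608058, plus strand), a Frizzled that carries both β-catenin-dependent and independent signals, ran from 8.27 to 9.24 CPM in CL WT (median 8.71) and from 3.77 to 7.03 CPM in PI WT (median 4.81). Here too the PI values all lay under the CL values, with 1.75-fold lower levels in PI, a log2 fold change of -0.81 (SE 0.23, n = 6 per group, adjusted p = 0.0368). In KO it ran from 6.93 to 9.44 CPM in CL and from 4.23 to 5.01 CPM in PI. The KO log2 fold change was -0.84 (SE 0.16, n = 6 per group, adjusted p = 0.00704). In WT the call was kept in 3 of 12 fits that left out 1 library, those without PI WT replicate 2, 4 or 5, with adjusted p up to 0.102 in the others, and in KO in 12 of 12.

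The other receptors were not called in either genotype by this test. Fzd4, a receptor of brain endothelium that binds Norrin as well as Wnts, ran from 8.02 to 10.0 CPM in CL WT and 5.37 to 7.48 CPM in PI WT, with a log2 fold change of -0.51 (SE 0.16, n = 6 per group, adjusted p = 0.0657). It passed after centring on the median gene (adjusted p = 0.0479), with the animal as a block (adjusted p = 0.0201) and without PI WT replicate 1 (adjusted p = 0.0303) or 3 (adjusted p = 0.0325). In KO its difference was -0.24. Lrp6, the main co-receptor, differed by -0.12 in WT and -0.09 in KO, and the log2 fold changes of the receptors ran from -0.81 to 0.25 in WT and -0.84 to 0.08 in KO.

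Of the 3 secreted antagonists, Frzb was called lower in both genotypes and Dkk3 and Sfrp1 were not called. Frzb (chr2:80411970-80447625, minus strand), a secreted protein with a Frizzled-like domain that binds Wnts outside the cell, ran from 9.59 to 11.9 CPM in CL WT (median 10.2) and from 2.06 to 4.24 CPM in PI WT (median 4.12). The groups did not overlap, and Frzb was 2.99-fold lower in PI, a log2 fold change of -1.58 (SE 0.27, n = 6 per group, adjusted p = 0.00263), the largest change among the 38 genes. In KO it ran from 6.56 to 9.49 CPM in CL (median 7.43) and from 2.68 to 5.75 CPM in PI (median 3.73). The PI values again lay under the CL values, a log2 fold change of -0.9997 (SE 0.29, n = 6 per group, adjusted p = 0.0463). The WT call was kept in 12 of 12 fits that left out 1 library. The KO call was kept in 2 of 12, those without PI KO replicate 3 or 5, with adjusted p up to 0.116 in the others, and without CL KO replicate 6 it had a log2 fold change of -1.07 and an adjusted p of 0.0595.

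Dkk3 ran from 309 to 378 CPM in CL WT and 348 to 461 CPM in PI WT, with log2 fold changes of 0.20 in WT and 0.21 in KO. Sfrp1, which like Frzb binds Wnts outside the cell, differed by -0.16 in WT and -0.02 in KO.

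Among the 5 membrane and feedback inhibitors, Apcdd1 rose in both genotypes and Axin2 fell in KO. Apcdd1 (chromosome 18), a membrane glycoprotein that blocks Wnt signalling at the cell surface, ran from 3.15 to 5.47 CPM in CL WT (median 3.58) and from 5.51 to 9.14 CPM in PI WT (median 6.98). The PI values lay above the CL values, by little at the edge, and PI was 1.83-fold higher, a log2 fold change of 0.87 (SE 0.26, n = 6 per group, adjusted p = 0.0489). In KO it ran from 3.09 to 3.59 CPM in CL and from 4.75 to 6.57 CPM in PI, a log2 fold change of 0.77 (SE 0.20, n = 6 per group, adjusted p = 0.0260). The WT call was kept in 4 of 12 fits that left out 1 library, those without PI WT replicate 2 or 5 or CL WT replicate 4 or 6, with adjusted p up to 0.120 in the others. It also missed the threshold with each group centred on its median gene (adjusted p = 0.0538). The KO call was kept in 6 of 12, with adjusted p up to 0.0777, and was lost without PI KO replicate 1, 2 or 3 or CL KO replicate 2, 3 or 4.

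Axin2 (chr11:108920349-108950783, plus strand), a scaffold of the complex that destroys β-catenin and a widely used readout of the pathway because β-catenin induces it, ran from 11.9 to 14.6 CPM in CL KO (median 12.9) and from 9.52 to 10.2 CPM in PI KO (median 9.86). These ranges did not overlap, and PI was 1.32-fold lower, a log2 fold change of -0.41 (SE 0.12, n = 6 per group, adjusted p = 0.0437). In WT Axin2 ran from 10.5 to 12.4 CPM in CL and from 9.40 to 11.4 CPM in PI, groups that overlapped, with a log2 fold change of -0.13 (SE 0.12, n = 6 per group, adjusted p = 0.572). The difference between genotypes was -0.28 (95% interval -0.62 to 0.06, adjusted p = 0.992) and was not called. The KO call was kept in 2 of 12 fits that left out 1 library, those without CL KO replicate 2 or 3, with adjusted p up to 0.104 in the others. Without CL KO replicate 6 the log2 fold change was -0.35 and the adjusted p was 0.0685. Rnf43 and Znrf3, ubiquitin ligases that remove Frizzled from the surface, and Nkd1, which binds Dishevelled, were not called, with log2 fold changes of -0.05, -0.02 and 0.10 in WT and -0.29, -0.12 and -0.38 in KO.

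**Figure D3:**
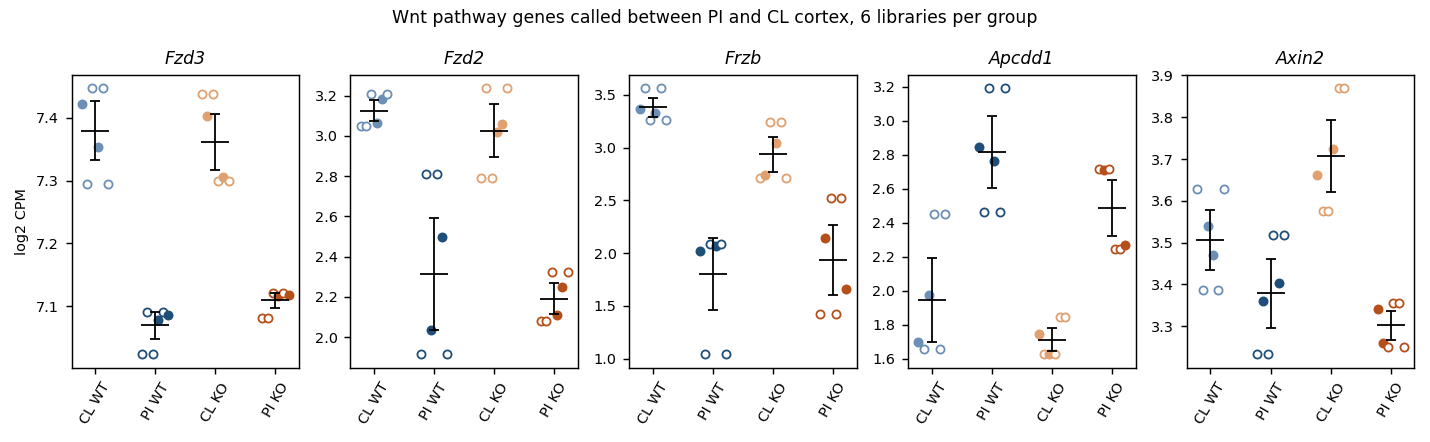
Log2 CPM of the 5 called genes in the 6 libraries of each group; open circles are values that had been drawn in and are placed at the recovered second lowest or second highest value, filled circles are untouched, and bars give the trimmed mean and its SE. Fzd3, Fzd2 and Frzb are lower in PI than in CL in both genotypes, Apcdd1 is higher, and for Axin2 the CL and PI values do not overlap in KO.

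None of the 7 Wnt ligands passed the test in either genotype. Wnt9a ran from 6.25 to 8.26 CPM in CL WT and 4.57 to 5.62 CPM in PI WT, groups that did not overlap, with a log2 fold change of -0.50 (SE 0.16, n = 6 per group, adjusted p = 0.0662). Its KO value was close in size, -0.48 (SE 0.17, adjusted p = 0.0975 with limma's step). Wnt7b, which with Wnt7a maintains brain vessels, ran from 6.68 to 7.35 CPM in CL WT and 7.91 to 9.86 CPM in PI WT, a log2 fold change of 0.39 (SE 0.13, adjusted p = 0.0731 with limma's step), beside 0.13 in KO. It passed in WT without PI WT replicate 4 (adjusted p = 0.0239) or 5 (adjusted p = 0.0296).

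Wnt7a had log2 fold changes of opposite sign, -0.41 (SE 0.41, adjusted p = 0.605) in WT and 0.57 (SE 0.24, adjusted p = 0.154) in KO. The difference between genotypes was 0.98 (95% interval -0.07 to 2.04, adjusted p = 0.992) and was not called. Porcn, the acyltransferase that adds the lipid to Wnts, and Wls, which carries them to the surface, differed by 0.22 and -0.10 in WT and by -0.04 and -0.17 in KO.

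The 3 R-spondins, which keep Frizzled at the surface by removing Rnf43 and Znrf3, were not called either. Rspo1 ran from 3.47 to 4.43 CPM in CL WT and 2.26 to 2.93 CPM in PI WT, without overlap, a log2 fold change of -0.66 (SE 0.20, n = 6 per group, adjusted p = 0.0518), and it passed without the trend (adjusted p = 0.0314), after centring on the median gene (adjusted p = 0.0394) and on the log2(CPM + 1) scale (adjusted p = 0.0465). In KO it differed by -0.56 (SE 0.23, adjusted p = 0.151), also without overlap. Rspo3 differed by 0.19 in WT and by 0.35 in KO (SE 0.11, adjusted p = 0.0591), and the KO value was called when the animal was used as a block (adjusted p = 0.0211). Rspo2 ran from 7.49 to 11.7 CPM in CL WT and 9.60 to 16.9 CPM in PI WT, a log2 fold change of 0.60 (SE 0.24, adjusted p = 0.140), beside 0.07 in KO. It passed in WT without PI WT replicate 1 (adjusted p = 0.0340) or 4 (adjusted p = 0.0321).

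The block by animal, which compares the CL and PI library of each animal, called 8 of the 38 genes in WT against a background of 15.7% of all genes, and 6 in KO against 15.0%. In WT it added Rspo2 (adjusted p = 0.000861), Dkk3 (adjusted p = 0.0139), Fzd4 (adjusted p = 0.0201) and Wnt9a (adjusted p = 0.0387) to the 4 genes called without it. The 4 genes were higher, higher, lower and lower in PI in that order. The pairing was weak: in each genotype 3 of the 6 CL and PI pairs correlated best with their own number.

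In the cytoplasmic core and among the nuclear effectors no gene was called. Ctnnb1 ran from 264 to 273 CPM in CL WT and 284 to 295 CPM in PI WT, a log2 fold change of 0.10 (SE 0.05, adjusted p = 0.191). In KO it ran from 256 to 273 CPM in CL and 294 to 309 CPM in PI, a log2 fold change of 0.17 (SE 0.05, adjusted p = 0.0538). The ranges did not overlap in either genotype, with a larger median in PI in both; 14.6% of its exon bases are shared with Ulk4 on the opposite strand, and whether strand was used in counting is not given in the sources used here. Gsk3b differed by -0.03 in WT and -0.14 in KO, and the Dishevelled genes Dvl1, Dvl2 and Dvl3, which carry the signal from the receptor, by -0.04, -0.06 and 0.14 in WT.

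Lef1 differed by -0.14 (SE 0.48, adjusted p = 0.901) in WT, a value that turned to 0.16 without PI WT replicate 2 or 6, and by 0.55 (SE 0.29, adjusted p = 0.264) in KO, at a median of 13 to 18 reads per library. Tcf7l2 differed by 0.00 in WT and -0.31 in KO.

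Other genes of the pathway were read from a list of 66, of which 58 were tested in WT and 57 in KO. In WT 3 were called higher and 5 lower, and in KO 2 higher and 7 lower, where over all genes 5.20% were called higher and 5.40% lower in WT, and 5.11% and 4.94% in KO. Tspan12, a tetraspanin that works with Fzd4 in the Norrin pathway, was higher in both, by 0.40 (SE 0.09, adjusted p = 0.0134) in WT and 0.48 (SE 0.09, adjusted p = 0.00460) in KO. Daam2, a formin that binds Dishevelled, was lower in both, by -0.67 (SE 0.10, adjusted p = 0.00143) and -0.48 (SE 0.10, adjusted p = 0.0105). Pygo1, a cofactor of β-catenin in the nucleus, Prickle1 of the planar polarity pathway and Mapk10 were also called lower in both. The other calls were made in a single genotype. Kremen1 and Rhoa were higher and Celsr1 lower in WT, and Csnk1d was higher and Tle2, Nlk and Tnik lower in KO.

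Of 22 known targets outside the 38 genes, 18 were tested. In WT 5 were called higher (Myc, Ccnd1, Cd44, Id2 and Slc7a5) and none lower; in KO 4 were called higher (Myc, Ccnd1, Cd44 and Slc7a5) and 2 lower (Nrcam and Abcb1a), beside 5.20% of all genes called higher and 5.40% lower in WT, and 5.11% and 4.94% in KO. Ccnd1, cyclin D1, rose by 0.64 on the log2 scale in WT (SE 0.12, adjusted p = 0.00461) and 0.61 in KO (SE 0.09, adjusted p = 0.000910). Cd44, a hyaluronan receptor that is also a marker of reactive astrocytes, rose by 2.36 in WT and 1.63 in KO. These genes have regulators other than β-catenin.

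Markers of other cell types moved in the same comparison. All 9 of 9 reactive astrocyte markers tested were higher in PI WT and 8 of 8 in PI KO, and their summed level ran from 137 to 164 CPM in CL WT and from 481 to 555 CPM in PI WT, and from 137 to 151 CPM in CL KO and 463 to 648 CPM in PI KO. Of 10 neuronal markers 3 were lower in each genotype (Snap25, Syt1 and Camk2a), with summed levels of 6856 to 7422 CPM in CL WT and 5770 to 6438 CPM in PI WT, and Gad2 was higher in KO. In KO the sums of the neuronal markers were 7020 to 7262 CPM in CL and 5558 to 6179 CPM in PI. For the endothelial markers, 0 of 8 were called in WT by the trimmed-mean test and 1 lower in KO, and their sums overlapped at 93.6 to 135 CPM in CL WT and 94.6 to 140 CPM in PI WT. Of 8 microglia markers 4 were called higher and 1 lower in each genotype. Of 8 astrocyte markers 1 was higher and 3 lower in WT, and 1 higher and 1 lower in KO. Of 8 meningeal and perivascular fibroblast markers 1 was higher and 1 lower in each genotype. Of 8 oligodendrocyte markers 1 (Cnp) was lower in WT and 0 were called in KO. Their sums were 2151 to 2351 CPM in CL WT and 1499 to 2119 CPM in PI WT, without overlap. In KO the oligodendrocyte sums overlapped, at 1715 to 2332 CPM in CL and 1671 to 1886 CPM in PI. Of 5 oligodendrocyte precursor markers tested, 1 (Cspg4) was lower in WT and 0 were called in KO. Over all genes 5.20% were called higher and 5.40% lower in WT, and 5.11% and 4.94% in KO. The part of these cell types in the members' values was not tested.

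The second question was how KO differed from WT. In PI cortex the same trimmed-mean test called 0 of the 38 genes, at a background of 0.0208% of 14452 genes. At an unadjusted p under 0.05 there were 2 of 38 (5.26%), where 5.75% of all genes were. On the deposited values limma called 3 of 38 (7.89%) and 16.5% of all genes. Porcn ran from 19.7 to 24.1 CPM in PI WT and 17.3 to 19.4 CPM in PI KO, the 1 gene of the 38 whose groups did not overlap (8.97% of all genes), a log2 fold change of -0.31 (SE 0.11, 95% interval -0.54 to -0.08, adjusted p = 0.854). Wnt7a differed by 0.71 (95% interval 0.01 to 1.41, adjusted p = 0.854) and Dvl2 by -0.29 (95% interval -0.64 to 0.07, adjusted p = 0.861).

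In CL cortex 0 of the 38 genes were called by the trimmed-mean test, at a background of 0.0279% of 14323 genes. There were again 2 at an unadjusted p under 0.05 (5.26%, against 5.73% of all genes). On the deposited values limma called 6 of 38 (15.8%) and 16.1% of all genes. The groups did not overlap in 4 of 38 (Frzb, Fzd1, Rnf43 and Rspo2), where 8.67% of all genes did not. Rspo2 ran from 7.31 to 11.5 CPM in CL WT and 11.7 to 15.7 CPM in CL KO, without overlap, a log2 fold change of 0.63 (SE 0.19, 95% interval 0.21 to 1.04, adjusted p = 0.648). Frzb ran from 9.34 to 11.6 CPM in CL WT and 6.44 to 9.33 CPM in CL KO, a log2 fold change of -0.44 (SE 0.17, 95% interval -0.80 to -0.08, adjusted p = 0.824). Fzd1 differed by 0.19 (95% interval -0.03 to 0.40, adjusted p = 0.878). The CL KO libraries here are those of the PI and CL comparison in KO.

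**Figure D4:**
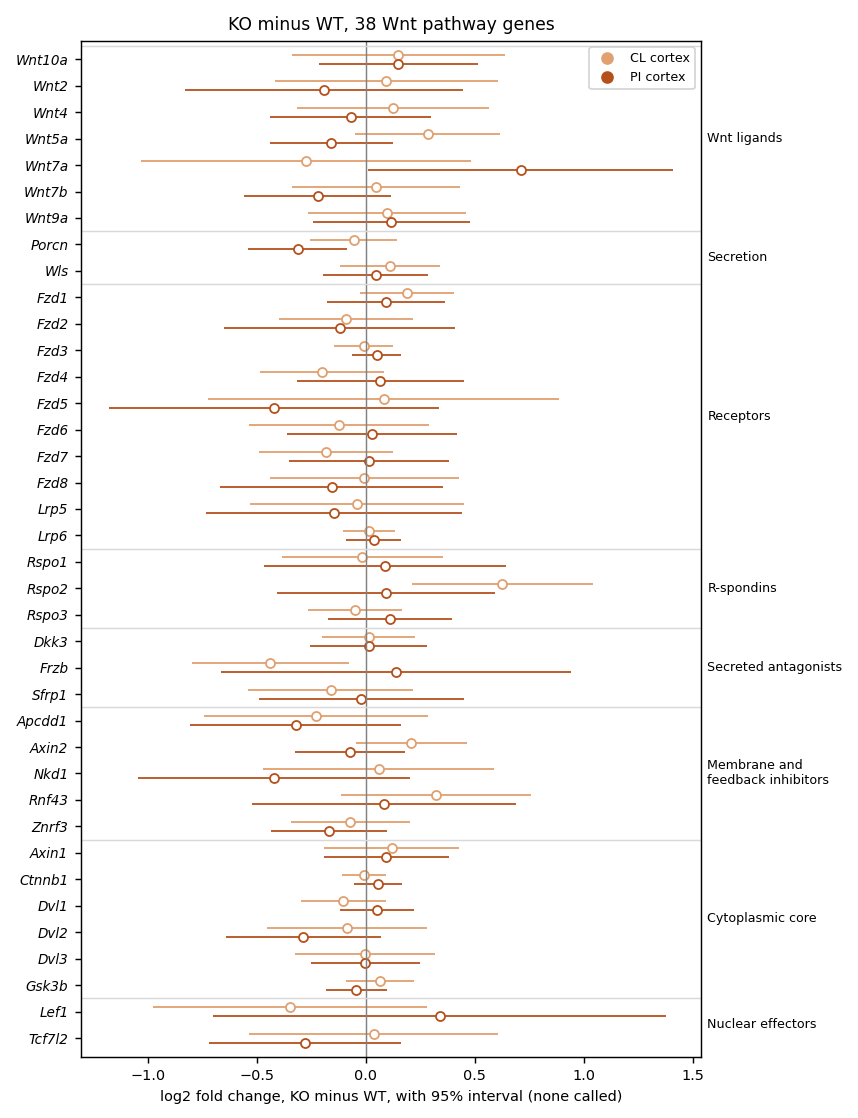
Log2 fold change of KO minus WT for the 38 genes in CL and in PI cortex, with 95% intervals and grouped by role. No point passed the adjusted test; the interval of Rspo2 in CL runs from 0.21 to 1.04 and that of Porcn in PI from -0.54 to -0.08.

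The genes called between PI and CL were compared between genotypes as well. The log2 fold change of KO against WT was 0.05 (95% interval -0.06 to 0.16) for Fzd3 in PI and -0.01 (95% interval -0.14 to 0.13) in CL. For Fzd2 it was -0.12 (95% interval -0.65 to 0.41) and -0.09 (95% interval -0.40 to 0.22), and for Frzb in PI 0.14 (95% interval -0.66 to 0.94). For Apcdd1 it was -0.32 in PI (95% interval -0.80 to 0.16) and -0.23 in CL (95% interval -0.74 to 0.29). Axin2, called between PI and CL in KO, differed by -0.07 in PI (95% interval -0.33 to 0.18) and by 0.21 in CL (95% interval -0.05 to 0.46). None was called by the trimmed-mean test, and for Fzd2, Frzb and Apcdd1 the intervals are wide.

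Whether PI and CL differed by another amount in KO than in WT was tested across 14211 genes. The trimmed-mean test called 0 of the 38 genes and 0% of all genes, with 1 of 38 (Wnt5a) at an unadjusted p under 0.05, where 4.55% of all genes were. On the deposited values limma called 4 of 38 (10.5%) and 13.7% of all genes. Wnt5a, a ligand that acts mainly without β-catenin, differed by 0.16 in WT and by -0.28 in KO, an interaction of -0.44 (95% interval -0.88 to -0.01, adjusted p = 0.992). Porcn followed Wnt7a with -0.25 (95% interval -0.54 to 0.04). For Frzb the interaction was 0.58 (95% interval -0.32 to 1.49), which was not called.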

How the data were processed

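RNA of mouse cortex was ribosome-depleted and sequenced with a total RNA kit, per the labels' protocols. The authors deposited log2 CPM in 4 tables of 2 groups of 6 libraries, each scaled separately, and no count table was used. The build is mm10, per the submitters' processing notes. The aligner, annotation, gene filter and the drawing in of values to the quartiles of each group are not given in the sources used here. The drawing in was read from the deposited log2 values, where ties held in 100% of genes.

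From these, the 4 inner values of each group were solved and compared by trimmed means with Winsorized errors, with limma 3.58.1 in R 4.3.3 (empirical Bayes with a trend), two-sided, Benjamini-Hochberg over each table, called at adjusted p under 0.05. A total of 5 comparisons were made, the interaction from both PI and CL tables. P-values rest on the spread between these libraries within groups. The main test took the CL and PI libraries of an animal as independent, and only the block paired them. The code was tested on simulated data. Samples were grouped by their titles, and 0 columns were left unused. Exon lengths and positions are from GENCODE on GRCm38 and promoters from RefSeq. Every gene called, those at unadjusted p under 0.05 in both genotypes, the 3 of smallest p in each genotype comparison and the key nodes Ctnnb1, Axin2, Lef1, Frzb, Wnt7a, Wnt7b and Rspo were named. Members and lists were chosen with earlier results of these data known.

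CL and PI libraries of a number come from 1 animal per the labels, and deviations of the 6 pairs correlated at -0.01 to 0.21 in WT and -0.01 to 0.19 in KO. Alternatives were no trend, limma on the deposited values, centring on the median gene, log2(CPM + 1), minimum means of 1 and 4 CPM, the block, and leaving out each library; the last and the 4 CPM minimum were chosen after seeing the data.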

Additional observations from a re-analysis of the deposited data

How the results depend on the processing

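The alternatives other than leaving out a library reversed the direction of no named value. Only limma on the deposited values, centring and the log2(CPM + 1) scale could have done so. Leaving out the trend, the block and the minimum means do not alter a log2 fold change. Across these alternatives 201 values kept their side of the threshold, 30 passed it in addition and 6 no longer passed. Without a trend, WT calls fell to 1015 genes and KO calls to 739, with 2 of the 38 genes in KO. On the deposited values limma called 16 of the 38 genes (6459 genes in all) in WT, 23 (6666) in KO, 3 (2388) for KO against WT in PI, 6 (2311) in CL and 4 (1940) for the interaction; the drawn-in values understate the spread by construction. Ctnnb1 passed in KO with the minimum of 4 CPM (adjusted p = 0.0487) and Wnt9a (adjusted p = 0.0481) and Fzd4 (adjusted p = 0.0479) in WT after centring. Centring each group on its median gene moved the share of higher calls from 49.1% to 37.7% in WT and from 50.8% to 36.7% in KO. With the replicate block, 8 of the 38 genes were called in WT, and for the interaction 1 gene in all. Between KO and WT, animals share only a number: the replicate block called 6 genes in PI, and in CL 85 genes, 1 of the 38 (Rspo2, adjusted p = 0.0255), and 1 sample in PI and 2 in CL correlated best with their own number. It changed no other call of a named gene than those given above.

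Leaving out 1 library gave 2 to 5 calls among the 38 genes in WT (1117 to 1468 in all), 2 to 4 in KO (900 to 1602), 0 for both comparisons of KO with WT (3 to 4 in all in PI and 3 to 7 in CL) and 0 for the interaction. All 9 named values that were called kept their sign. Their recoverable values did not overlap between the groups, so leaving out a library could not turn it. Of the 26 that were not called, some of them also without overlap, 24 kept their sign. The other two were Lef1 in WT, from -0.53 to 0.16 and above 0 without PI WT replicate 2 or 6, and Rspo2 in KO, from -0.035 to 0.16 and under 0 without PI KO replicate 2 or 4 or CL KO replicate 1 or 6. Depth limits genes under about 20 reads per library, Lef1 and Fzd5 among them, and 3 reads were worth 0.803 CPM in CL KO replicate 6. A minimum of 1 CPM removed at most 1 gene.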
